A study of Apis mellifera ligustica with 12 samples.

Results

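The comparison described here sets the brain microRNAs (miRNAs) of honeybee workers at day 10 of fluvalinate treatment (D10) against those of untreated workers (CK). It uses 6 of the 12 small RNA libraries of the series, 3 for each group. The study followed miRNAs of Apis mellifera ligustica brains over a fluvalinate treatment, and the remaining libraries were collected at days 20 and 30 (D20 and D30). Each library came from the pooled brains of foraging adult workers of 1 colony, in either group, cleared of royal jelly glands and pigments at dissection. The D10 bees came from hives that held a strip of fluvalinate, a pyrethroid acaricide used against Varroa mites, and were collected 10 days after the treatment began. The CK libraries are named only as untreated. The study treats them as the state before administration, although its design also names control colonies, and the labels do not say which was sequenced. Treatment and sampling date, and colony if these were control colonies, therefore cannot be told apart. Since a pool was made per colony and sampling time, the 3 libraries of a group would be of separate colonies, but the labels name no colony, and p-values measure the spread between these pools.

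The files list 1350 miRNA entries, of which 180 are known honeybee miRNAs, with names that begin with ame-. Those with a sum of 10 or more counts in the 6 libraries, 165 in number, were tested. Another 7 had fewer counts and 8 had none. The second set held the 1170 entries named after other species (miR-n-x for the 5p arm, miR-n-y for the 3p arm) or predicted by the authors, of which 392 were tested. Counts on listed entries came to between 8454313 and 13878451 in CK and between 10054711 and 14278811 in D10. At these depths 3 counts corresponded to 0.210 to 0.355 counts per 1000000 listed counts (CPM), a floor that covers counting error only. Levels below are CPM with library sizes scaled by TMM (trimmed mean of M-values) factors. They are not corrected for the ligation and amplification preferences of small RNA libraries, and different miRNAs are therefore not ranked by abundance beyond large gaps.

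MiRNAs are short RNAs cut from hairpin precursors and loaded into Argonaute proteins, which they guide to complementary sites in mRNAs, mostly through the seed at their 5′ end. Either arm of a hairpin can be loaded, and hairpins that lie close together are often transcribed as 1 precursor. In brains, miR-124 is a hallmark of neurons from flies to mammals, and miR-276 and miR-932 have been tied to learning in the fruit fly and the honeybee. Mature sequences of the miRNAs on which the comparison turns are shown first, from the deposited tables, 5′ to 3′ with the seed (bases 2 to 8) in capitals. The first 5 were higher in D10, and the next 4 were lower.
ame-miR-12-5p: tGAGTATTacatcaggtactggt
ame-miR-3477-5p: tAATCTCAtgcggtaactgtgag
ame-miR-283-5p: aAATATCAgctggtaattct
ame-miR-281-3p: tGTCATGGagttgctctctttgt
ame-miR-375-3p: tTTGTTCGttcggctcgagtta
ame-miR-7-5p: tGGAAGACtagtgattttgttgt
ame-miR-932-5p: tCAATTCCgtagtgcattgcag
ame-miR-993-3p: gAAGCTCGtctctacaggtatct
ame-miR-6041-3p: aAATATCAtcgagatcgaagga
The second set adds the 5p arm of miR-281 and a longer form of miR-375-3p, whose first 22 bases are those of the honeybee entry.
miR-281-x: aAGAGAGCtatccatcgacagt
miR-375-y: tTTGTTCGttcggctcgagttaaa

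Ame-miR-283-5p and ame-miR-6041-3p share the seed AATATCA. The former was higher and the latter lower in D10.

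Among known honeybee miRNAs, the 5 with the smallest p in the upward direction were ame-miR-281-3p, ame-miR-12-5p, ame-miR-3477-5p, ame-miR-283-5p and ame-miR-375-3p, at 1.82 to 3.49 times the CK level. In the downward direction they were ame-miR-7-5p, ame-miR-6041-3p, ame-miR-993-3p, ame-miR-92c-5p and ame-miR-6001-5p. No known honeybee miRNA passed the test: the quasi-likelihood (QL) test of edgeR on the 6 libraries called 0 of 165 (0%) at an adjusted p under 0.05, and the smallest adjusted p was 0.116. At an unadjusted p under 0.05 it counted 18 of 165 (10.9%), of which 10 were higher in D10 (6.06% of those tested) and 8 lower (4.85%). The groups did not overlap for 9 miRNAs that were higher in D10 (5.45%) and for 16 that were lower (9.7%).
The count of calls depended on the test. DESeq2 called 7 of 165 (4.24%), namely ame-miR-281-3p, ame-miR-12-5p, ame-miR-283-5p, ame-miR-375-3p, ame-miR-6040-3p and ame-miR-3477-5p, which were higher, and ame-miR-993-3p, which was lower. EdgeR's classic exact test called 4 (2.42%), and limma with voom weights called 0. Without D10-1, the QL test called 4 (ame-miR-375-3p, ame-miR-6040-3p, ame-miR-281-3p and ame-miR-3477-5p), and without any other library it called 0.

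**Figure D1:**
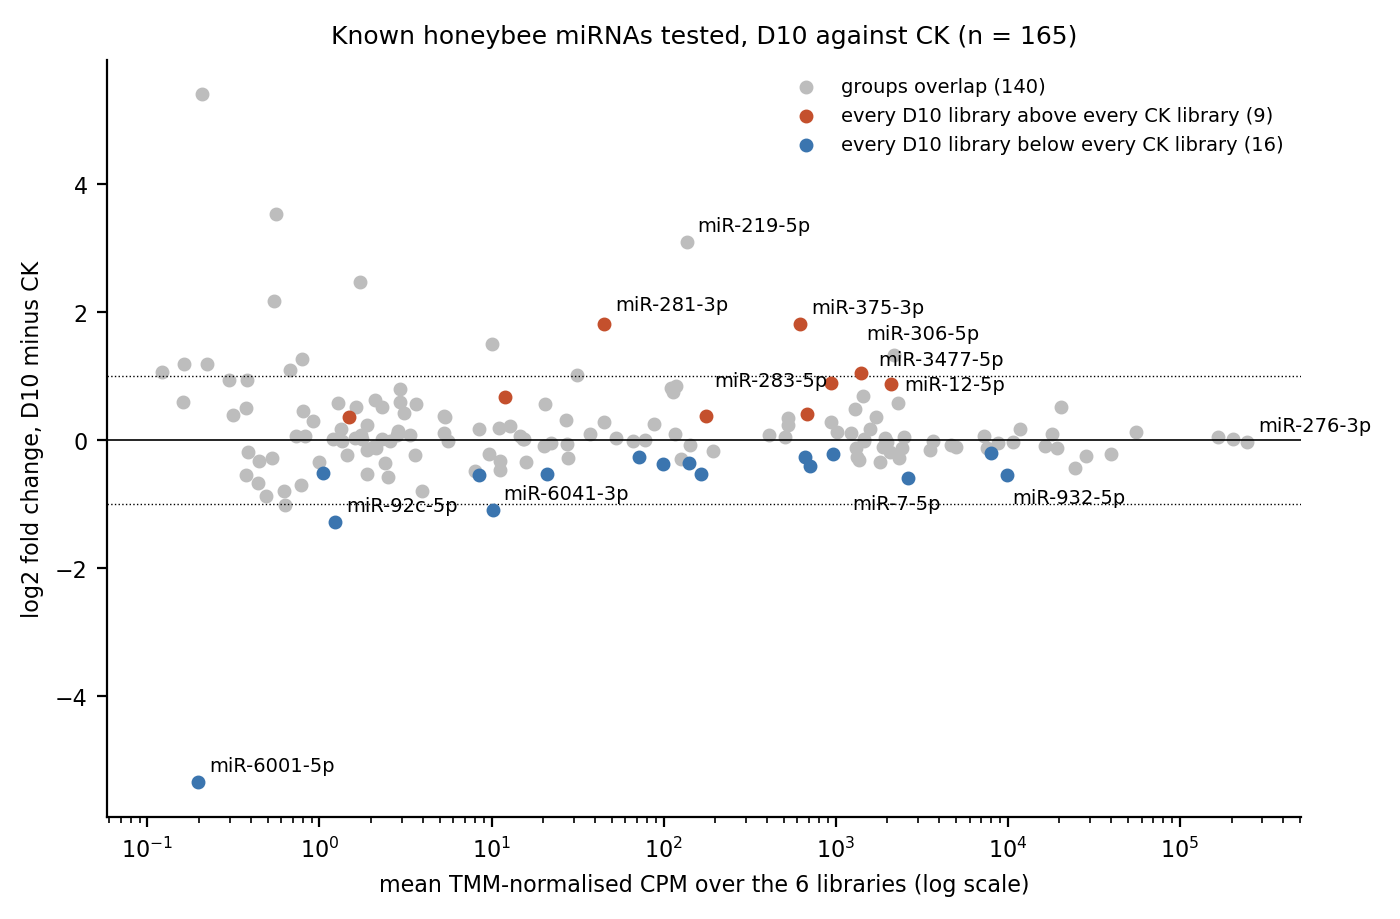
Each of the 165 known honeybee miRNAs tested, by its mean level over the 6 libraries (horizontal axis, CPM on a log scale) and its log2 fold change in D10 against CK (vertical axis). Dotted lines mark a log2 fold change of 1 and −1. The 9 miRNAs whose D10 libraries all exceeded CK and the 16 whose D10 libraries were all below CK are coloured, and the other 140 are grey. Ame-miR-219-5p has a high fold change although its groups overlap.

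The hairpins of miR-12, miR-3477 and miR-283 lie within 1365 bases on linkage group 2 of the honeybee genome (Amel_HAv3.1, RefSeq gene table), within the protein-coding gene LOC411348 as annotated. Mir12 spans 4840914 to 4840996, Mir3477 spans 4841409 to 4841507 and Mir283 spans 4842179 to 4842278. In the fruit fly, miR-12 and miR-283 also come from 1 cluster.
Ame-miR-12-5p had 1404, 1765 and 1283 CPM in CK-1, CK-2 and CK-3 and 2266, 2886 and 2955 CPM in D10-1, D10-2 and D10-3. The lowest D10 library lay above the highest CK library, and the log2 fold change was 0.86 (standard error 0.19, adjusted p = 0.116, edgeR QL test).
Ame-miR-3477-5p had 949, 920 and 904 CPM in CK and 1318, 2346 and 2024 in D10. Its CK libraries were nearly equal, with 925 ± 22.7 CPM (SD, n = 3), and all D10 libraries were above them, D10-1 by the least. The log2 fold change was 1.04 (standard error 0.23, adjusted p = 0.116).
For ame-miR-283-5p the values were 662, 617 and 692 CPM in CK and 950, 1640 and 1056 in D10. Here D10-2 was the highest and the groups were again apart. The log2 fold change was 0.89 (standard error 0.23, adjusted p = 0.178) and 0.61 without D10-2.
All 3 members of the cluster were thus higher without overlap between the groups, a pattern that 5.45% of the tested miRNAs showed in this direction. The 3 were picked as a list with their values known, and miRNAs cut from neighbouring hairpins are not independent of each other. No second entry of the cluster was called: miR-3477-x, a longer form of ame-miR-3477-5p, had a log2 fold change of 1.76 (standard error 0.50, adjusted p = 0.349), of which D10-2 carried a large part (0.80 without it). MiR-283-x, of the same arm as ame-miR-283-5p, had 0.31 (standard error 0.15, adjusted p = 0.660).

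MiR-281 was higher in D10 on both arms of its hairpin. In mosquitoes miR-281 is abundant in the midgut, and in the honeybee the hairpin Mir281 lies on linkage group 1 from 20557512 to 20557614, outside annotated protein-coding genes. Ame-miR-281-3p had 22.5, 21.4 and 16.2 CPM in CK and 36.3, 101.2 and 71.6 in D10. The D10 libraries ranged widely among themselves, but each was above CK. The log2 fold change was 1.80 (standard error 0.37, adjusted p = 0.116, edgeR QL test).
The 5p arm, miR-281-x, is the more abundant, with 32929 counts over the 6 libraries against 3291 for the 3p arm. It had 2564, 2965 and 2762 counts in CK and 8251, 8614 and 7773 in D10, or 239 ± 48.2 CPM and 669 ± 103 CPM (SD, n = 3). Neither group came near the other. It passed the test, with a log2 fold change of 1.48 (standard error 0.20, adjusted p = 0.0125 over the 392 entries of the second set), and that value ranged from 1.40 to 1.65 as single libraries were left out. The call was lost without CK-2 (adjusted p = 0.0770) and with all 12 libraries in the fit (adjusted p = 0.405), in both of which the log2 fold change was nearly the same (1.44 and 1.50). In all, 5 of the 392 entries of the second set (1.28%) were called, each of them higher in D10, and 3 of the 5 (miR-182-x, miR-183-x and miR-96-x, described further on) passed the count minimum only through D10. At an unadjusted p under 0.05 there were 31 (7.91%), of which 22 were higher (5.61%) and 9 lower (2.3%). The files do not list miR-281-x under a honeybee name, but the study equates it with ame-miR-281-5p, by which it is placed on this hairpin.

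MiR-375, which in vertebrates is known for its role in the pancreatic islet, was higher in both forms that were counted. Its hairpin lies on linkage group 3 from 6120162 to 6120261, inside LOC113218672. Ame-miR-375-3p had 369, 292 and 172 CPM in CK and 429, 1293 and 1177 in D10. The lowest D10 library, D10-1, was only a little above the highest CK library, and the other D10 libraries were far above it. The log2 fold change was 1.80 (standard error 0.45, adjusted p = 0.160, edgeR QL test).
MiR-375-y, the form longer by 2 bases at its 3′ end, was rare, with 25, 23 and 12 counts in CK and 83, 192 and 96 in D10. It made up 0.957% of the counts of the pair. It passed the test, with a log2 fold change of 2.48 (standard error 0.46, adjusted p = 0.0315), but the call was lost without CK-2, CK-3, D10-2 or D10-3 (adjusted p between 0.0754 and 0.216), with at least 100 counts required (0.0908) and with all 12 libraries fitted (0.170). The pair may share reads, and the rise of one is no separate evidence for the other.

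**Figure D2:**
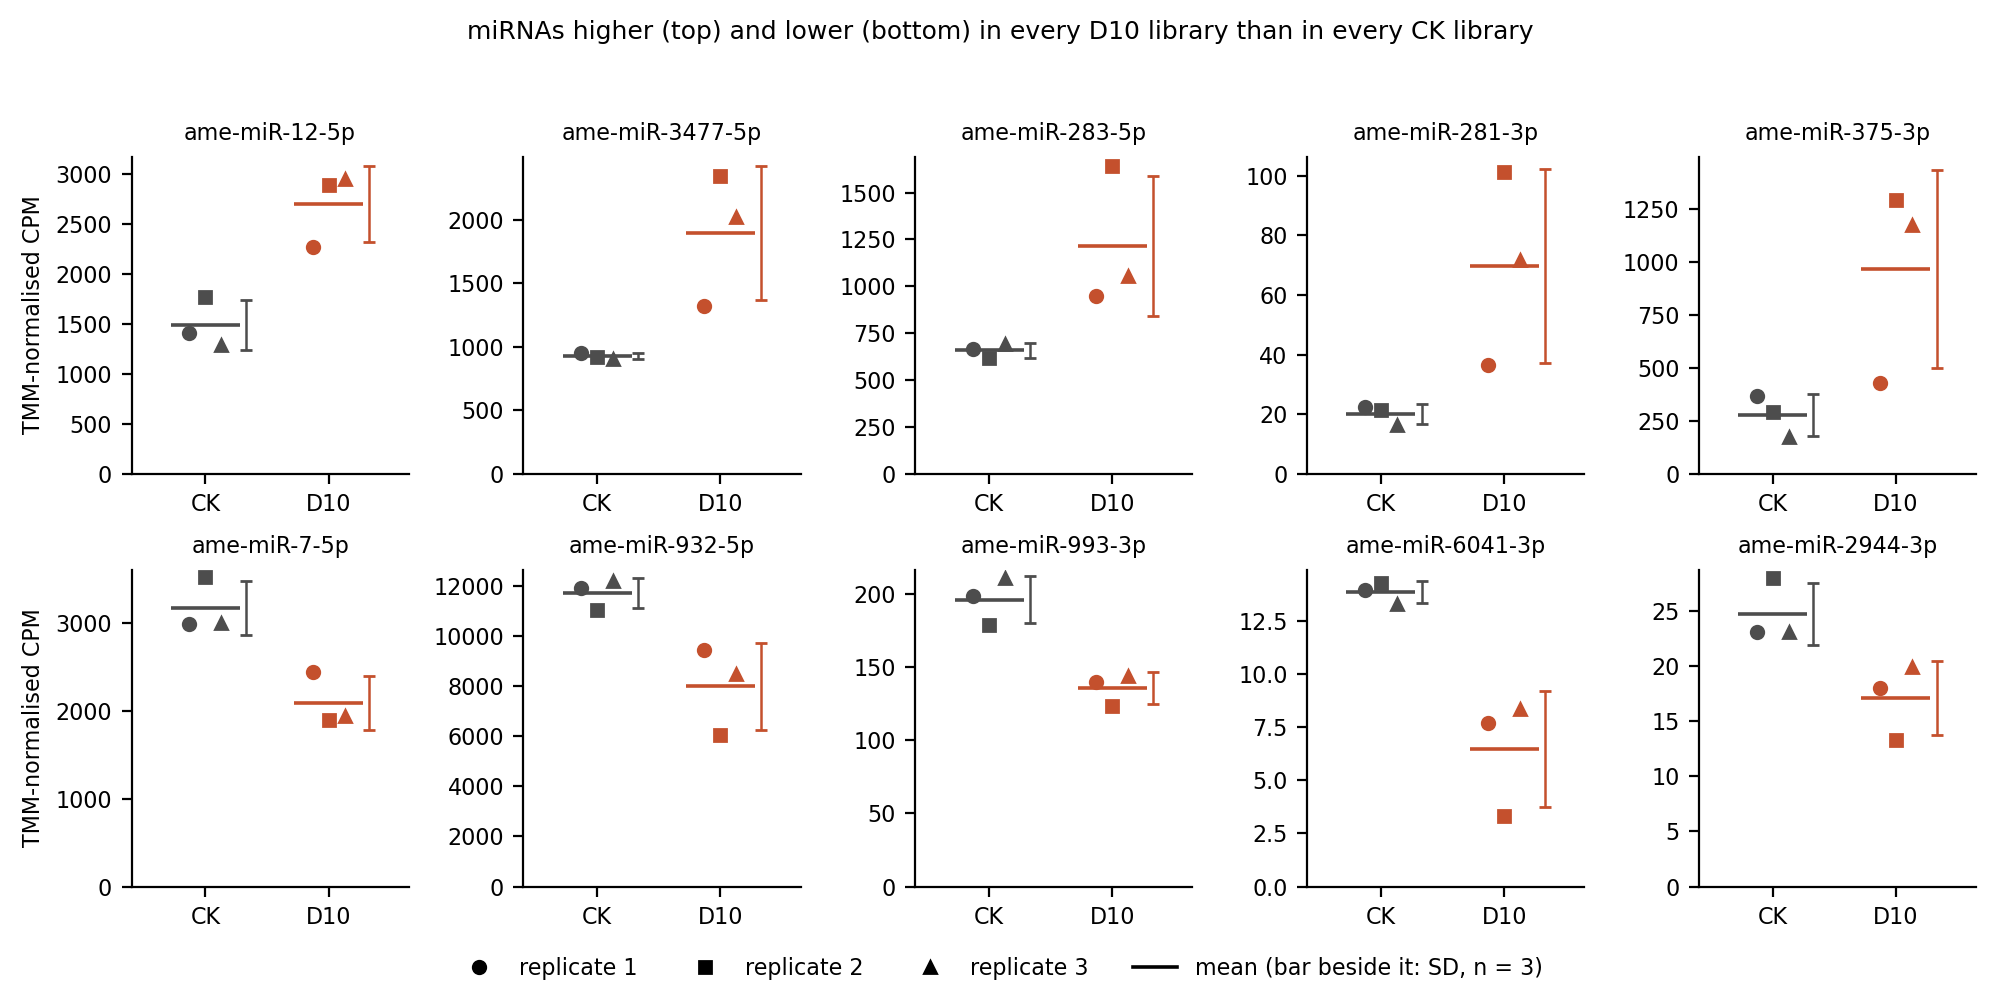
Level of 10 miRNAs in each CK and D10 library (vertical axis from 0, TMM-normalised CPM). Points are libraries, horizontal lines are group means and bars are SDs (n = 3). In the upper row the D10 libraries are all above CK, as for ame-miR-12-5p (2266 to 2955 against 1283 to 1765 CPM). In the lower row they are all below, as for ame-miR-7-5p (1893 to 2445 against 2991 to 3521 CPM).

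Among the miRNAs that were lower in D10, ame-miR-7-5p is known from the fruit fly for its part in photoreceptor differentiation. It had 2991, 3521 and 2999 CPM in CK and 2445, 1893 and 1938 in D10. The groups did not overlap, and the log2 fold change was −0.60 (standard error 0.17, adjusted p = 0.230, edgeR QL test). It lay between −0.73 and −0.50 with each library left out. The rarer products of the hairpin had values of the same size: −0.59 (standard error 0.27) for miR-7-x and −0.63 (standard error 0.23) for miR-7-y of the opposite arm, both without overlap and neither called (adjusted p = 0.601 and 0.420). The hairpin lies on linkage group 9 from 8761586 to 8761672, inside LOC409007.
Ame-miR-932-5p, which has been linked to memory formation in honeybees, was the most abundant of those without overlap. Its levels were 11923, 11021 and 12191 CPM in CK and 9427, 6054 and 8485 in D10. The CK libraries agreed closely and D10-2 was the lowest. The log2 fold change was −0.55 (standard error 0.18, adjusted p = 0.243), and −0.39 without D10-2. Its longer form miR-932-x had −0.47, whereas miR-932-y of the opposite arm had 0.03 (standard error 0.19).
Ame-miR-993-3p had 199, 179 and 211 CPM in CK and 140, 124 and 144 in D10. The spread within either group was small, and the log2 fold change was −0.53 (standard error 0.17, adjusted p = 0.243). DESeq2 called it (adjusted p = 0.0352). Ame-miR-6041-3p was rarer, with 13.9, 14.3 and 13.3 CPM in CK and 7.71, 3.34 and 8.36 in D10, again without overlap. Its log2 fold change was −1.10 (standard error 0.34, adjusted p = 0.243), and −0.78 without D10-2. For ame-miR-2944-3p, a miRNA with the seed of the miR-2 family, it was −0.54 (standard error 0.22, adjusted p = 0.438).

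Among the lower miRNAs were also minor arms of a pair of hairpins. Ame-miR-92c-5p had 17, 18 and 27 counts in CK and 14, 7 and 6 in D10, while its partner ame-miR-92c-3p had between 1943 and 3076 counts in each library and a log2 fold change of −0.18 (standard error 0.23). Ame-miR-6001-5p had 2, 4 and 9 counts in CK and none in D10, which makes it at least 1.60-fold lower if each D10 library is set to 3 counts. Its partner ame-miR-6001-3p had 20, 25 and 38 counts in CK and 27, 38 and 22 in D10. The ratio of the 5p to the 3p arm within a library needs no scaling between libraries. It was tested with limma for the 8 known hairpins with both arms tested, and 2 of 8 (25%) were called, those of miR-92c and miR-6001. For miR-92c the log2 ratio was lower by 1.12 in D10 (standard error 0.25, adjusted p = 0.0203), with −6.87, −6.84 and −6.81 in CK and −7.53, −8.02 and −8.34 in D10. That of miR-6001 is no separate result, since the 5p arm reached the count minimum only through CK and its ratio in D10 is set by the 0.5 added to a count of 0. A minimum of 100 counts for each arm took both called hairpins out of the test, so its 0 calls say nothing about them. Leaving out CK-2, CK-3, D10-2 or D10-3 left 1 call, which may be that of miR-6001, and leaving out CK-1 gave 3.

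D10-2 stood apart from the other libraries. Of the 96 known miRNAs with a mean of at least 10 CPM, 19 were more than 2-fold from the median of the other 5 libraries in D10-2 (15 above and 4 below), against 0 to 4 in each other library. It held the highest or the lowest value for 62 of the 96. Its correlation with the other libraries across all 165 known miRNAs tested, on the log2 scale, was 0.971 to 0.980, against 0.987 to 0.991 between other libraries.
Ame-miR-219-5p, which in vertebrates acts in myelinating glia, was the most extreme. It had 27.7, 20.7 and 37.4 CPM in CK and 26.4, 683 and 21.3 in D10. The high value is that of D10-2 alone, and the log2 fold change of 3.09 (standard error 1.25, adjusted p = 0.429) became −0.27 without it. Ame-miR-306-5p had 1228, 1208 and 1310 CPM in CK and 1280, 6452 and 1607 in D10. Its log2 fold change was 1.32 with D10-2 and 0.20 without.
Others named here after their values were seen had the same form: ame-miR-282-5p (1.01 with D10-2 and 0.01 without), ame-miR-965-3p (0.80 and −0.34), ame-miR-996-3p (0.83 and −0.01) and ame-miR-305-5p (0.68 and 0.12). In the opposite direction, let-7-5p had 643 CPM in D10-2 against 1372 to 1577 in the other libraries. The 5 miRNAs that led the upward changes were lower without D10-2 but stayed above 0.6. Without it ame-miR-281-3p had a log2 fold change of 1.43 (1.80 with it), ame-miR-375-3p 1.52 (1.80), ame-miR-283-5p 0.61 (0.89), ame-miR-12-5p 0.81 (0.86) and ame-miR-3477-5p 0.85 (1.04). Of the 96 miRNAs, 8 had an absolute log2 fold change above 1, 3 had one without D10-2, and those 3 (those of ame-miR-281-3p, ame-miR-6040-3p and ame-miR-375-3p) were among the 8. The sign changed for 26 of the 96 when D10-2 was left out.

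**Figure D3:**
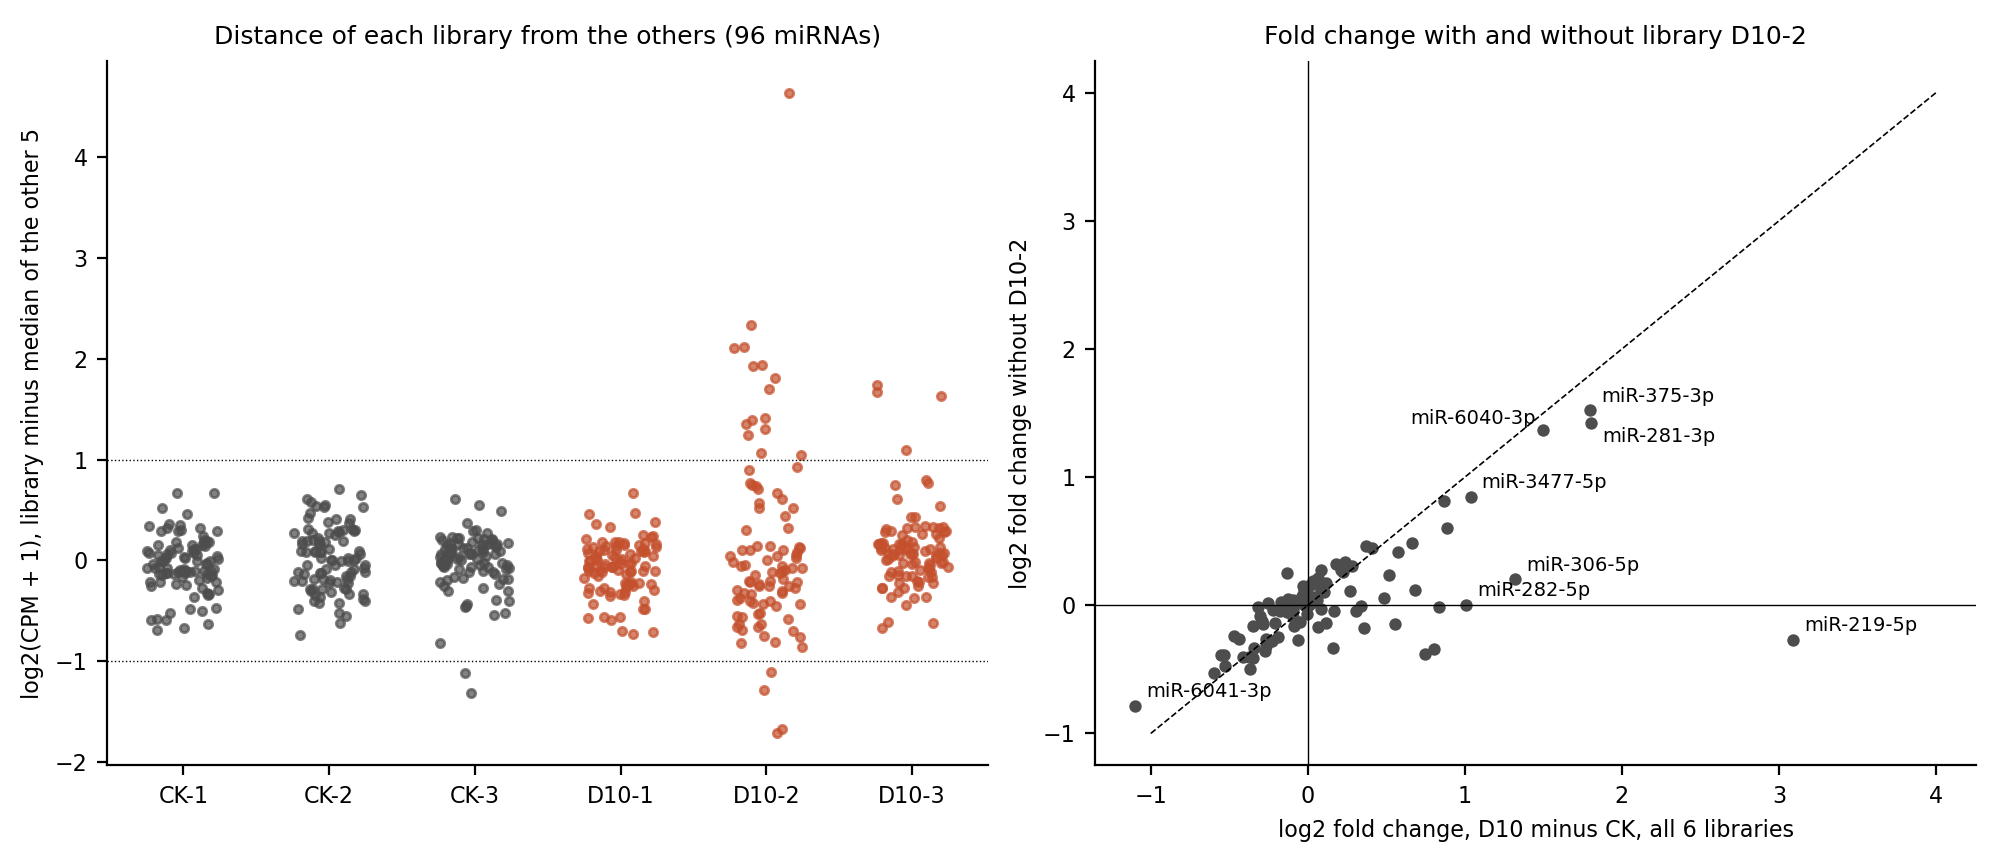
Left, difference in log2(CPM + 1) between each library and the median of the other 5, for 96 known miRNAs (1 point each, spread sideways for visibility), with dotted lines at a 2-fold difference. D10-2 has 19 miRNAs beyond the lines. Right, log2 fold change of D10 against CK with all 6 libraries (horizontal) and without D10-2 (vertical), with a dashed line of equality. Ame-miR-219-5p drops from 3.09 to −0.27, and ame-miR-281-3p and ame-miR-375-3p stay above 1.4.

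By the share of high-quality reads in the study's read filtering, CK-1, D10-2 and D10-3 are of a higher kind and CK-2, CK-3 and D10-1 of a lower kind. The leading miRNAs had no overlap between the groups, so their direction within each kind was bound to be the same, and only the sizes can differ. Ame-miR-281-3p had a log2 ratio of D10 to CK of 1.94 within the higher kind and 0.95 within the lower, and ame-miR-375-3p had 1.74 and 0.89. It was 1.20 and 0.53 for ame-miR-3477-5p, and 1.06 and 0.57 for ame-miR-12-5p. For miR-281-x the values, 1.28 and 1.46, were close to each other. Ame-miR-7-5p had −0.64 and −0.41. Each kind holds 1 library of one of the groups, so these ratios carry no error.

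Groups of miRNAs with known roles showed few differences, and no list had a miRNA called by the edgeR QL test. Counts of list members free of overlap are to be read against the 25 of 165 (15.2%) over all known miRNAs tested, 5.45% higher and 9.7% lower. Over all 165 miRNAs the median log2 fold change was 0.02, with 90 above 0 and 75 below.
Of the neuronal markers, ame-miR-124-3p and ame-miR-137-3p were abundant in every library. Ame-miR-124-3p had between 13570 and 21547 CPM in CK and between 19190 and 32648 in D10, and ame-miR-137-3p had between 3985 and 5696 in all 6 libraries. The log2 fold change of ame-miR-124-3p was 0.52 (standard error 0.25, adjusted p = 0.474), with overlapping groups. Of the 5 neuronal miRNAs, 4 had a value above 0, with a median of 0.49, and 0 of 5 were free of overlap. The highest value, 0.56 for ame-miR-1000-5p, became −0.15 without D10-2. This miRNA was far rarer, with 42.9 CPM in D10-2 and 12.6 to 21.1 CPM in the other libraries.
The miRNAs tied to learning and memory gave no common direction. Beside ame-miR-932-5p, ame-miR-276-3p (which acts on dopamine receptor levels in the fly) had −0.04 and ame-miR-34-5p, known in flies for its role in ageing brains, had −0.03. Ame-miR-980-3p, a suppressor of memory in the fly, was counted at 0.76 CPM or less in 5 libraries and at 7.79 CPM in D10-2, so that its 2.47 became −0.09 without that library.
The 3 members of the let-7 complex (let-7, miR-100 and miR-125), which drives neuromuscular remodelling at metamorphosis in the fly, had values between −0.31 and −0.05, all within the spread of the libraries. Without D10-2 they were between −0.01 and 0.05. MiR-317, miR-277 and miR-34, which lie on the same linkage group, had values between −0.22 and −0.03. The muscle miRNAs ame-miR-1-3p (−0.35) and ame-miR-133-3p (−0.13) were present at 1146 to 2656 CPM in every library, and their groups overlapped.
Among miRNAs of metabolism and growth, ame-miR-8-3p, which acts in fat body growth in the fly, had 1581, 2246 and 1705 CPM in CK and 2240, 3319 and 2674 in D10. D10-1 fell just below CK-2, and the log2 fold change was 0.57 (standard error 0.21, adjusted p = 0.335). Ame-miR-14-3p, which limits cell death and fat storage in the fly, had −0.44 (standard error 0.20, adjusted p = 0.474). Of the 6 members of this list, 4 were above 0, and ame-miR-375-3p was free of overlap.
All 5 members of the miR-279 family, which share the seed GACTAGA and in the fly shape the CO2-sensing neurons and circadian output, had values above 0, from 0.04 to 0.83. No member was free of overlap, and the highest value, that of ame-miR-996-3p, was −0.01 without D10-2. In the sensory organ pair, which protects bristle cells from death in the fly, ame-miR-263a-5p was higher without overlap (0.41, standard error 0.18, adjusted p = 0.474) and ame-miR-263b-5p lower without overlap (−0.21, standard error 0.14, adjusted p = 0.638).
Of the other lists, 1 of 6 members of the miR-71 and miR-2 cluster was free of overlap (ame-miR-2b-5p, higher, at under 2 CPM), as were 1 of 3 of the Hox cluster (ame-miR-993-3p), 1 of 4 of the miR-92 family (ame-miR-92c-5p) and 1 of 2 photoreceptor miRNAs (ame-miR-7-5p). The miR-275 and miR-750 clusters, each a pair, had none.

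The most abundant miRNAs were level between the groups. Ame-miR-276-3p, ame-miR-2796-3p and ame-miR-184-3p together took between 60.5% and 62.7% of the listed counts in every library. Their log2 fold changes were −0.04 (standard error 0.13), 0.01 (0.13) and 0.04 (0.10), and those of ame-miR-981-3p and ame-miR-317-3p were 0.12 (0.27) and −0.22 (0.20). The groups overlapped for all 5. Known honeybee miRNAs made up 97.34% ± 0.162 (SD, n = 3) of the listed counts in CK and 97.36% ± 0.216 in D10 (exact permutation test, two-sided, p = 0.9, where 3 libraries against 3 cannot go below 0.1).

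Hairpins that lie within 10 kb of each other formed 18 groups with 50 tested miRNAs, and in 9 of the 18 all entries had fold changes of 1 sign. Only the group of miR-12, miR-3477 and miR-283 had all its members free of overlap. In the group of miR-306 and miR-79 on linkage group 15 both values were above 0 (1.32 and 0.28), and in that of miR-275 and miR-305 on linkage group 4 they differed (−0.13 and 0.68).
Forms of the same arm tended to share a sign: of 59 end variants with at least 100 counts, 46 had the sign of their honeybee miRNA, with which they may share reads. Of 37 opposite arms with at least 100 counts, 20 had the sign of the known arm. Apart from miR-281-x, none of the opposite arms was called.

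The other entries called in the second set were miR-182-x, miR-183-x and miR-96-x, which are named after miRNAs of other species. In vertebrates, miR-183, miR-96 and miR-182 form a cluster active in sensory organs. MiR-182-x had 0 counts in each CK library and 43, 43 and 8 in D10, at least 8.94-fold higher if each CK library is set to 3 counts. MiR-183-x had 0 counts in CK and 23, 27 and 17 in D10, at least 6.79-fold higher. MiR-96-x had 0, 0 and 2 counts in CK and 30, 59 and 8 in D10. All 3 reached the minimum of 10 counts only through the D10 libraries, so that they could enter the test only by being higher there, and their calls add nothing to these counts.
Counts this low were present in all D10 libraries and nearly absent from CK. In D20 there were 0 counts of miR-182-x and miR-183-x and 2 of miR-96-x. In D30-3, however, there were 739, 435 and 162 counts of miR-182-x, miR-183-x and miR-96-x. None of the 3 is near-identical to a known honeybee miRNA. The nearest to miR-183-x was ame-miR-263a-5p, with 2 mismatches, to miR-182-x ame-miR-263b-5p, with 4, and to miR-96-x the same miRNA, with 8.
Entries named after 24 vertebrate miRNA families, a list drawn up after values were seen that includes these 3, summed to 1.66, 6.41 and 5.28 CPM in CK and 20.6, 19.9 and 4.97 in D10. Without the 3 the sums were 1.66, 6.41 and 5.13 CPM in CK and 13.9, 10.01 and 1.69 in D10. By either sum D10-1 and D10-2 lay above CK, D10-3 lay within its range, and D30-3, with 3421 and 3337 CPM, was far above all. Of the 14 such entries that were tested, 4 were higher in D10 without overlap, the 3 called and miR-181-x. Among all 392 tested entries of the second set, 5.36% had this pattern. MiR-181-x had 0, 2 and 2 counts in CK and 22, 9 and 2 in D10. It too reached the count minimum only through D10, and its 2 counts in D10-3 are under the floor of 3. Over the whole second set the median log2 fold change was −0.05. Of the 11 vertebrate-named entries not called, 9 had a higher mean in D10 than in CK. This count includes miR-181-x and the entries at 0 in CK, which could enter the test only by being higher in D10. Those at 0 in CK were miR-211-x (11, 25 and 0 counts in D10), miR-204-x (9, 14 and 0) and miR-486-x (0, 40 and 4). The sequences of miR-211-x and miR-204-x are near-identical. MiR-26-x had 2, 12 and 10 counts in CK and 24, 19 and 3 in D10. On the other side, miR-143-y had 10, 32 and 25 counts in CK and 18, 2 and 6 in D10, and miR-21-x had 2, 7 and 5 in CK and 17, 0 and 0 in D10. The part that RNA of other organisms, or reads exchanged with D30-3, has in the 3 calls was not tested. All 3 calls were lost without CK-2 and with all 12 libraries in the fit, and without D10-2 miR-281-x was the only call of the second set.

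**Figure D4:**
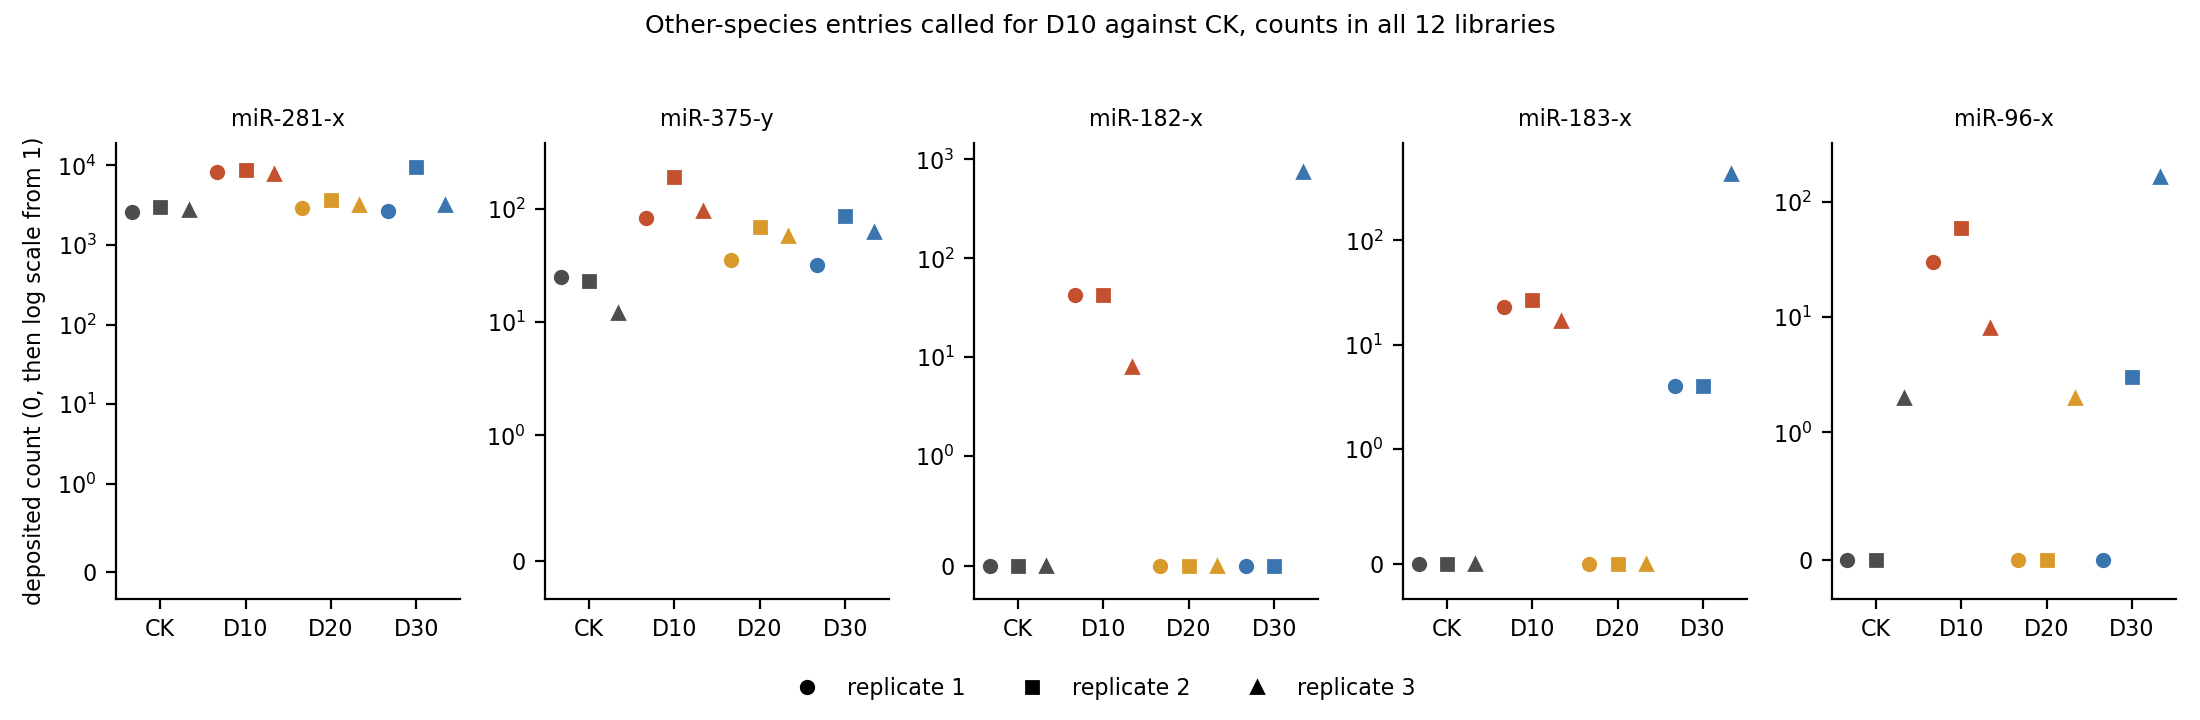
Deposited counts of the 5 called entries of the second set in all 12 libraries, by group (horizontal axis) on a vertical axis that is linear from 0 to 1 and logarithmic above. MiR-281-x and miR-375-y are counted in every library and are higher in D10 than in CK. In D30-2 both also reach the D10 counts, with 9624 and 86. MiR-182-x, miR-183-x and miR-96-x have 0 to 2 counts in CK and 8 to 59 in D10, and reach 739, 435 and 162 in D30-3.

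Over the whole second set, called entries included, 21 were higher in D10 without overlap (5.36%) and 26 lower (6.63%). The study's list of differentially expressed miRNAs over its time points also held miR-315-x, bantam-x, miR-9-x, miR-1-y, miR-750-y, miR-11987-x and the predicted m0184-5p and m0194-5p. In D10 against CK the groups overlapped for these. Their log2 fold changes were −0.62 (standard error 0.38) for miR-315-x, −0.31 (0.27) for bantam-x, −0.19 (0.38) for miR-9-x and −0.02 (0.24) for miR-1-y. They were −0.17 (0.41) for m0184-5p, −0.35 (1.44) for m0194-5p and −1.09 (1.21) for miR-750-y, the latter pair counted at under 1 CPM in each library. The only counts of miR-11987-x in these 6 libraries were in D10-3. For ame-miR-316-5p, also on that list, the value was −0.06 (standard error 0.30) at this time point.

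How far the day 10 levels differed from those at days 20 and 30 was tested in a fit of all 12 libraries, which share 1 estimate of the spread. None of the miRNAs that led the upward changes differed from D10 at an adjusted p under 0.05. Ame-miR-12-5p had 1461, 1335 and 1828 CPM in D20 and 1950, 2558 and 1377 in D30. The D20 libraries were all below the D10 range, and of the D30 libraries only D30-2 lay within it. Its log2 fold change was −0.81 in D20 against D10 (standard error 0.23, adjusted p = 0.127) and −0.46 in D30 against D10 (standard error 0.23, adjusted p = 0.307).
Ame-miR-281-3p had 28.5, 22.1 and 42.6 CPM in D20 and 22.7, 47.5 and 19.1 in D30, with log2 fold changes of −1.17 (standard error 0.41, adjusted p = 0.202) and −1.23 (standard error 0.41, adjusted p = 0.206) against D10. For its 5p arm, miR-281-x, there were 2936, 3632 and 3167 counts in D20 and 2662, 9624 and 3202 in D30, so that D30-2 reached the D10 counts. Ame-miR-375-3p varied widely in both, with 307 to 787 CPM in D20 and 157 to 741 in D30, and its values against D10 were −0.86 (standard error 0.56) and −1.37 (standard error 0.57). In D20, ame-miR-3477-5p and ame-miR-283-5p had −0.86 (standard error 0.27) and −0.51 (standard error 0.21) against D10. Ame-miR-7-5p, lower in D10, had log2 fold changes of 0.21 in D20 and 0.19 in D30 against D10 (standard error 0.19 in either). The comparisons with CK at the 3 time points share the CK libraries. In this fit ame-miR-12-5p had 0.87, 0.06 and 0.41 against CK at days 10, 20 and 30, and ame-miR-281-3p had 1.81, 0.64 and 0.58.
Over all 167 known miRNAs of this fit, 2 (1.2%) were called for D20 against D10 and 0 for D30 against D10, where the unadjusted counts were 21 (12.6%) and 29 (17.4%). Both calls, ame-miR-316-5p and ame-miR-6060-5p, were lower in D20 than in D10, and 0 were called when only the libraries of the 2 groups were fitted.

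**Figure D5:**
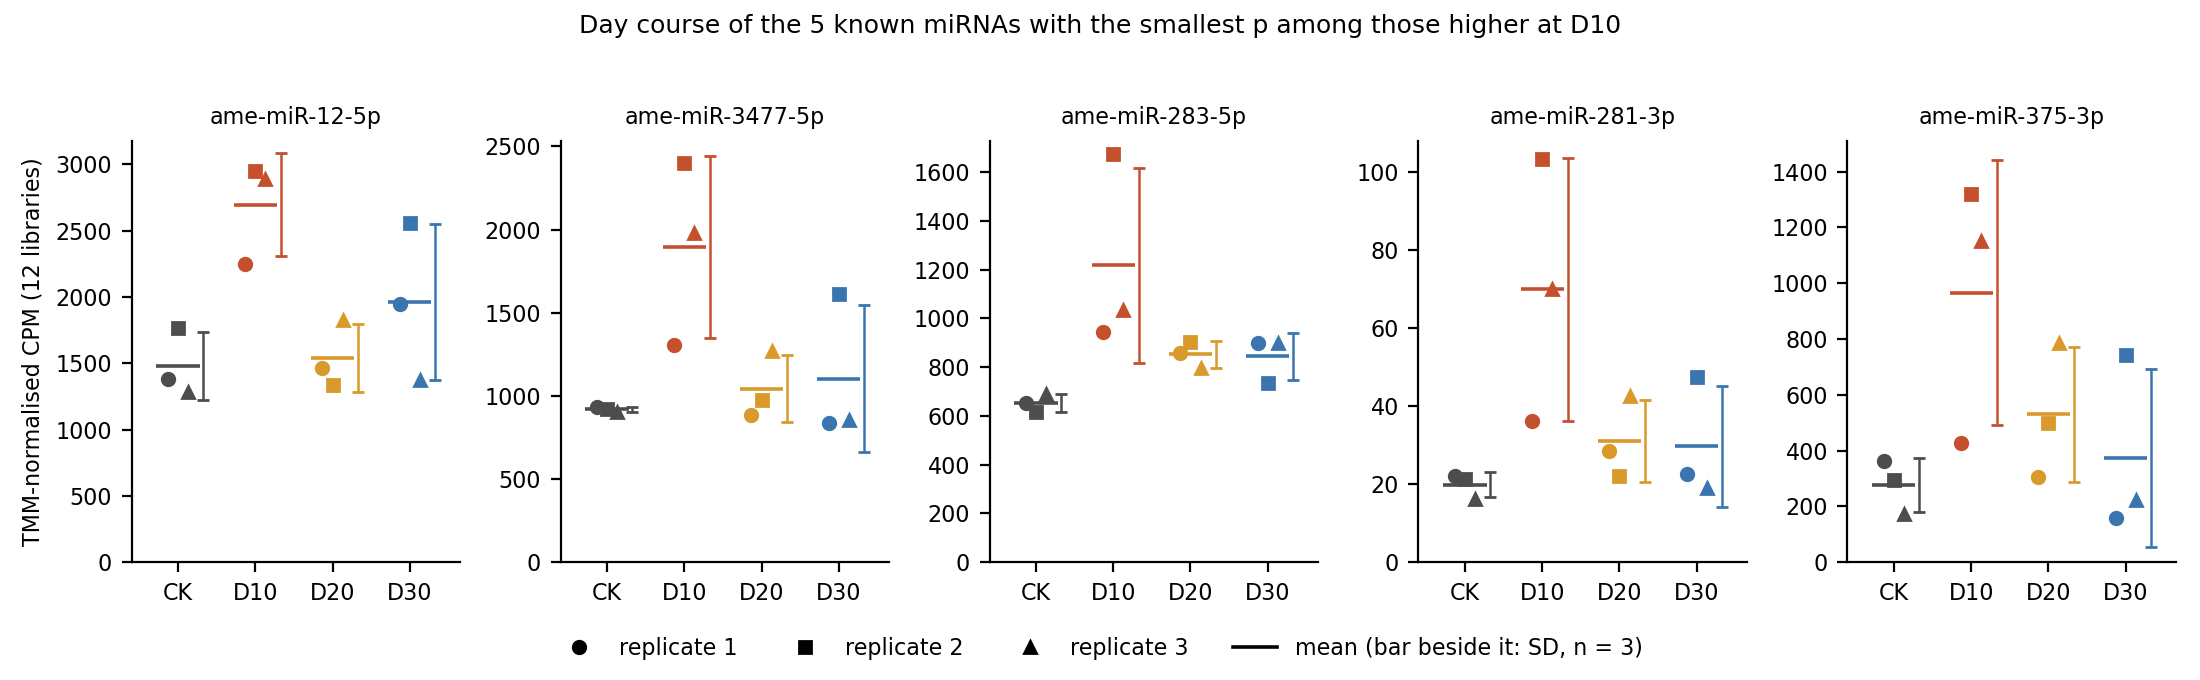
Level of the 5 known miRNAs that led the upward changes in all 12 libraries (vertical axis from 0, CPM scaled over the 12 libraries), by group. Points are libraries, lines are means and bars are SDs (n = 3). For ame-miR-12-5p and ame-miR-3477-5p the D20 libraries lie below all D10 libraries, while 1 D30 library lies within the D10 range.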

How the data were processed

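Small RNA of pooled brains was sequenced by the authors on an Illumina HiSeq. Reads of low quality, with inserts under 18 nt or seen fewer than 2 times were dropped, and tags of other small RNAs, exons, introns and repeats were removed. Bowtie matched the rest to honeybee miRNAs, to miRBase miRNAs of other species and to hairpins predicted with MIREAP. The authors deposited for each library the count of reads per entry, without normalization, and a TPM value per entry, used here only for class shares. Reads that fit several entries were assigned by the authors.

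The 3 CK and 3 D10 libraries were fitted in R 4.3.3 by the quasi-likelihood F test of edgeR 4.0.16 (TMM factors, library size from all listed entries, at least 10 counts over the 6 libraries, Benjamini-Hochberg within the set). The second set was fitted apart with the same factors. The standard error is the absolute log2 fold change over the square root of F. A call is an adjusted p under 0.05. The study's own threshold adds an absolute log2 fold change above 1. Arm ratios were tested with limma 3.58.1 on log2((5p + 0.5)/(3p + 0.5)). DESeq2 1.42.0, voom, the classic exact test and other settings were alternatives. The fits were tested on simulated counts with the same spread for every entry and no outlying library. That test does not cover a library that stands apart as D10-2 does. The rest was done in Python 3.11.15 with pandas 2.3.3, scipy 1.17.1 and numpy 2.4.6.

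Near-identical entries had at most 1 mismatch over at least 18 bases with ends at most 3 bases apart. Named miRNAs were those called, the 5 smallest p in each direction, the 5 largest changes in each direction at a mean of at least 10 CPM, the 5 most abundant, list members, the study's 15 calls, and hairpins past the arm test. Others were named after their values were seen. The members and lists were chosen with earlier results of these data known. No pair of replicate libraries was within sampling noise of each other.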

Additional observations from a re-analysis of the deposited data

Results flagged for a closer look

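In the fit of all 12 libraries, 2 known miRNAs differed between day 20 and day 10 of treatment. Ame-miR-316-5p had 17.2, 34.4 and 28.9 CPM in D10 and 11.5, 9.37 and 6.62 in D20. All D20 libraries were below all D10 libraries, with a log2 fold change of −1.55 (standard error 0.29, adjusted p = 0.0232, edgeR's quasi-likelihood test). Ame-miR-6060-5p had 10.5, 18.3 and 15.1 CPM in D10 and 5.73, 4.72 and 6.72 in D20, again without overlap, with a log2 fold change of −1.36 (standard error 0.29, adjusted p = 0.0315). Against CK, the value of ame-miR-316-5p at day 10 was −0.05 (standard error 0.28) and that of ame-miR-6060-5p 0.67 (standard error 0.28) in this fit, and neither was called.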

How the results depend on the processing

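Among known miRNAs, DESeq2 gave 7 calls, of which 4 passed the study's fold threshold, and the classic exact test gave 4 and 4. Those of the exact test include ame-miR-6001-5p, which reached the count minimum only through CK. Leaving out each library gave 0 to 4 of either. The other settings gave 0, among them the term for read quality, with a smallest adjusted p of 0.345. In the second set the 5 calls became 12 at a minimum of 1 count, 1 at 100 counts, 3 with voom, 0 with all 12 libraries and 2 with all entries in 1 fit, and 0 to 4 with each library left out. At the minimum of 100 counts miR-182-x, miR-183-x and miR-96-x were too rare to be tested. Arm ratios gave 0 calls at 100 counts per arm, where neither called hairpin was tested, and 1 to 3 with each library left out.

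Replicate numbers are shared by the groups in the labels, which do not say whether a number marks a colony. The number was not used as a block, since the study names none. Deviations of same-numbered libraries had correlations of 0.089, −0.122 and −0.017. So few pairs cannot settle whether the groups are paired. With the replicate block there were 0 known calls (smallest adjusted p 0.151), 5 in the second set, 1 arm ratio instead of 2, and 1 call for D20 against D10 instead of 2. Fitting the 2 groups alone gave 0 for D20 against D10.

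Signs turned mostly for values near 0. As single libraries were left out, the log2 fold change ran from −0.27 (without D10-2) to 3.71 for ame-miR-219-5p, from −0.080 to 0.070 for ame-miR-276-3p, from −0.080 to 0.145 for ame-miR-2796-3p, from −0.14 to 0.40 for ame-miR-981-3p and from −0.27 to 0.17 for ame-miR-316-5p. It ran from −0.52 to 0.064 for miR-9-x, from −0.67 to 0.21 for m0184-5p, from −1.69 to 1.24 for m0194-5p and from −0.28 to 0.15 for miR-1-y. With upper quartile factors ame-miR-2796-3p was −0.11, ame-miR-184-3p −0.077 and ame-miR-981-3p −0.0017. With all entries in 1 fit ame-miR-276-3p was 0.030, ame-miR-316-5p 0.0099 and miR-1-y 0.040. With the quality term m0194-5p was 0.23 and miR-1-y 0.015, and miR-1-y was also 0.0051 with RLE factors, 0.093 with factors of the second set and 0.0053 with DESeq2. The causes were not tested. Of 698 single values recomputed, 626 kept their sign and side of the threshold.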
